A study of Mus musculus with 4 samples.

Results

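The regions described here had a called peak in a single ATAC-seq library of 4. The libraries came from adipose progenitors, the precursors in fat tissue from which adipocytes form. Peaks sharing at least 1 bp were joined across libraries, and members were selected on peak presence, as autosomal joined regions with a peak in exactly 1 library. There were 29412 members among 80820 autosomal regions, or 36.4% (83319 regions with chromosomes X and Y). The cells were freshly isolated, without further treatment, from C57BL/6 mice aged 16 weeks. Subcutaneous fat (SAT 1 and SAT 2) was compared with visceral fat (VAT 1 and VAT 2), with 2 libraries each. The labels name neither the fat pad nor the markers used to isolate the cells, and they leave unsaid whether replicate libraries stem from different animals, so their spread, and any p-value from it, may be technical. No gene annotation of the build of the lists, mm9, was used, so the identity of the cells was not checked against marker genes and regions are given by position only.

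In ATAC-seq a transposase inserts sequencing adapters where DNA is not covered by nucleosomes, and a peak is called where insertions pile up above background. Promoters of widely used genes are open in most cell types, whereas distal enhancers vary more between cell types and states. Weak sites can fall on either side of a caller's threshold from one library to the next. A peak seen once can therefore be a site open in few cells, a site open in 1 preparation, or background, and the lists do not separate these. In bulk cells, fewer cells with an open site and weaker opening in each cell cannot be told apart either. The lists used here hold peaks without counts, so their depth is not known, and a site without a peak may still be open.

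Members were spread very unequally over the libraries, and VAT 2 held more than all others combined. VAT 2 alone accounted for 15893 members, or 54.0% of the total, although it held 31.3% of all autosomal peaks. VAT 1 had 6973 members and SAT 1 had 6272, from lists of nearly equal length (56907 and 56823 peaks). SAT 2, whose list of 22845 peaks is the shortest, had 274. These counts follow from the rule that chose the members, and they are given without a test.

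The share of a library's own regions that no other library held ran in the same order. It was 26.8% in VAT 2 (95% Clopper-Pearson interval 26.4% to 27.1%), 13.0% in VAT 1 (12.8% to 13.3%), 11.8% in SAT 1 (11.6% to 12.1%) and 1.33% in SAT 2 (1.18% to 1.5%). The replicate 1 libraries of the 2 depots differed by 1.20 percentage points, while the replicate 2 libraries held both the highest and the lowest share. Members are short, so they made up less of the covered sequence than of the regions. In VAT 2 they covered 2583 kb, or 14.6% of the bases under its peaks. The corresponding shares were 6.39% in VAT 1, 5.25% in SAT 1 and 0.600% in SAT 2.

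**Figure D1:**
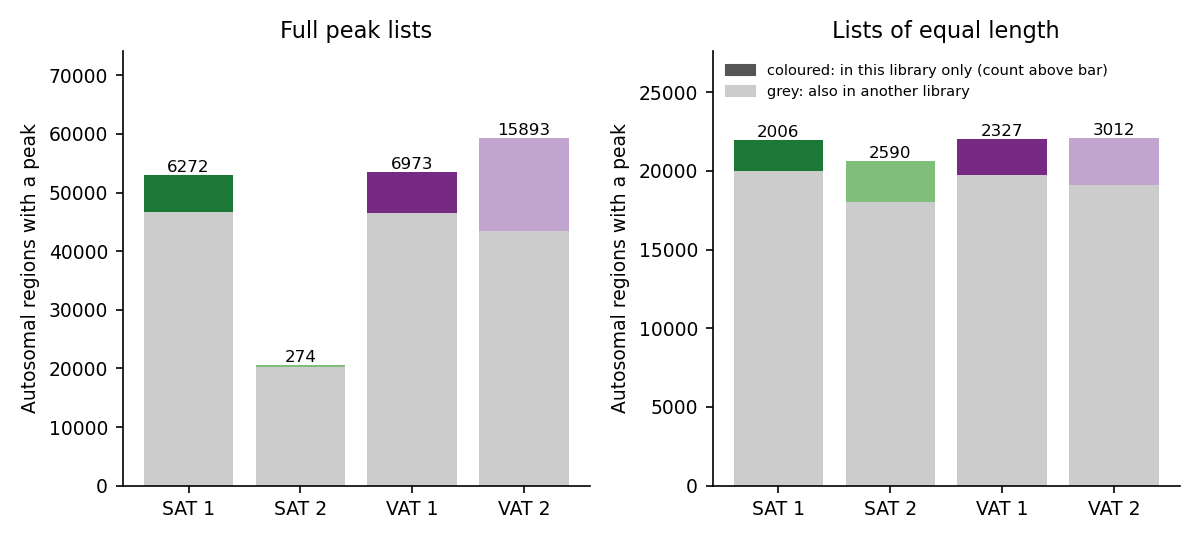
Autosomal regions with a peak in each library, with the regions found in that library only in colour and their number above the bar, and the regions also found elsewhere in grey; the left panel uses full lists and the right panel lists of equal length. With full lists the coloured part ranges from 274 in SAT 2 to 15893 in VAT 2, and with equal length from 2006 in SAT 1 to 3012 in VAT 2.

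The order changed with lists of equal length. When each list was limited to its 22845 highest-scoring peaks, VAT 2 still held the largest share of regions found in it alone, at 13.6% (13.2% to 14.1%), or 3012 regions. SAT 2 moved from the lowest to the second place, with 12.6% (12.1% to 13.0%), or 2590 regions. VAT 1 followed with 10.6% and SAT 1 with 9.13%. Most of these regions overlapped a peak of another library that ranked below the 22845 highest of its own list. No such peak existed for 609 of the 3012 VAT 2 regions (20.2%), 274 of the 2590 SAT 2 regions (10.6%), 111 of the 2327 VAT 1 regions (4.77%) and 87 of the 2006 SAT 1 regions (4.34%). The SAT 2 list is kept whole in this comparison and its peaks reach down to a score of 20, whereas the others end at 120 (SAT 1), 134 (VAT 1) and 131 (VAT 2). Its 274 are thus drawn from the full range of its scores.

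The counts also depended on the partner library and on the overlap asked for. Without VAT 1, the SAT 1 class grew from 6272 to 14249 regions, and without SAT 1, the VAT 1 class grew from 6973 to 14872, since regions that only these libraries shared then had a peak in 1. Without VAT 2 the classes of SAT 1, VAT 1 and SAT 2 held 10748, 11114 and 862 regions. The VAT 2 class grew to 20068 without SAT 1, to 19863 without VAT 1 and to 16432 without SAT 2. When another library's peak had to cover at least 50% of both peaks to count as shared, 12221 peaks of SAT 1, 5857 of SAT 2, 12299 of VAT 1 and 21924 of VAT 2 had no partner.

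By score, members came mostly from the bottom of each list. The median score percentile of members was 17.9 in SAT 1, 14.6 in SAT 2, 17.5 in VAT 1 and 25.3 in VAT 2. Regions shared with another library had medians of 57.1, 53.2, 57.2 and 62.6 in the same order. At score percentiles up to 10, members made up 64.1% of the regions in VAT 2, 41.5% in VAT 1, 39.4% in SAT 1 and 6.50% in SAT 2. SAT 1 and VAT 1 differed by at most 3.40 percentage points in any of 10 equal bins of the percentile.

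Members of VAT 2 reached further up its list than those of the other libraries. Between the percentiles of 50 and 60 they still made up 21.1% of regions, against 5.06% in SAT 1, 4.85% in VAT 1 and 0.378% in SAT 2. Of the regions at or above the percentile of 50, members were 7.29% in VAT 2 (2217 regions), 1.38% in VAT 1 (381), 1.34% in SAT 1 (367) and 0.102% in SAT 2 (11). At or above the percentile of 80 there were 49 members in VAT 2, 3 in SAT 1, and 0 in SAT 2 and VAT 1. Because the rule acts on peak presence, which depends on score, these values describe the members and test nothing.

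**Figure D2:**
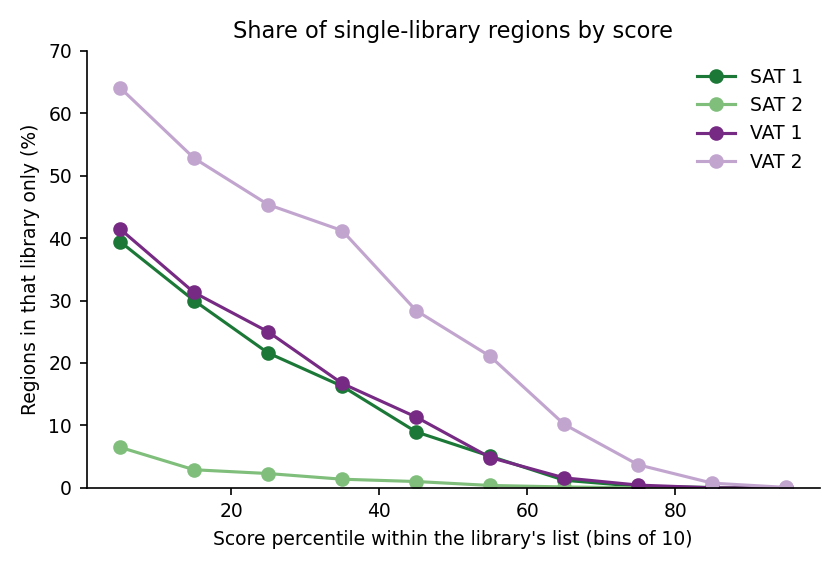
Share of each library's autosomal regions found in that library only (vertical axis, percent) by score percentile within its own list in bins of 10 (horizontal axis), 1 line per library. The share falls with score in every library, in VAT 2 from 64.1% in the lowest bin to 0.0659% in the highest, and the lines of SAT 1 and VAT 1 lie close together.

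Single-library regions were narrow, and each consisted of 1 peak. Their median width was 114 bp in both subcutaneous libraries (quartiles 94 to 148 in SAT 1 and 101 to 135 in SAT 2). VAT 1 members measured 128 bp (105 to 166) and VAT 2 members 139 bp (109 to 192). Peaks of the same libraries in shared regions had medians of 244, 218, 252 and 278 bp. The narrowest peak of a list was 89 bp wide in SAT 1, 101 bp in SAT 2 and 98 bp in both visceral lists, and many members had exactly that width. This held for 33.9% of SAT 2 members, 17.3% of SAT 1, 15.7% of VAT 1 and 12.9% of VAT 2 members, against 2.27% to 5.15% of shared peaks. The widest member measured 753 bp and lay in VAT 2.

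Members were also narrower than shared peaks of the same score. Up to the percentile of 10 the median widths were close, 115 bp for members against 136 bp for shared peaks in SAT 1 and 128 bp against 144 bp in VAT 2. Higher up they diverged. Between the percentiles of 60 and 70, members of SAT 1, VAT 1 and VAT 2 measured 148, 181 and 211 bp, whereas shared peaks measured 273, 280 and 279 bp. SAT 1 members hardly widened with score, with medians between 108 and 148 bp in all bins that held any. VAT 2 members widened from 123 bp between the percentiles of 10 and 20 to 269 bp above 90, where 4 members remained.

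**Figure D3:**
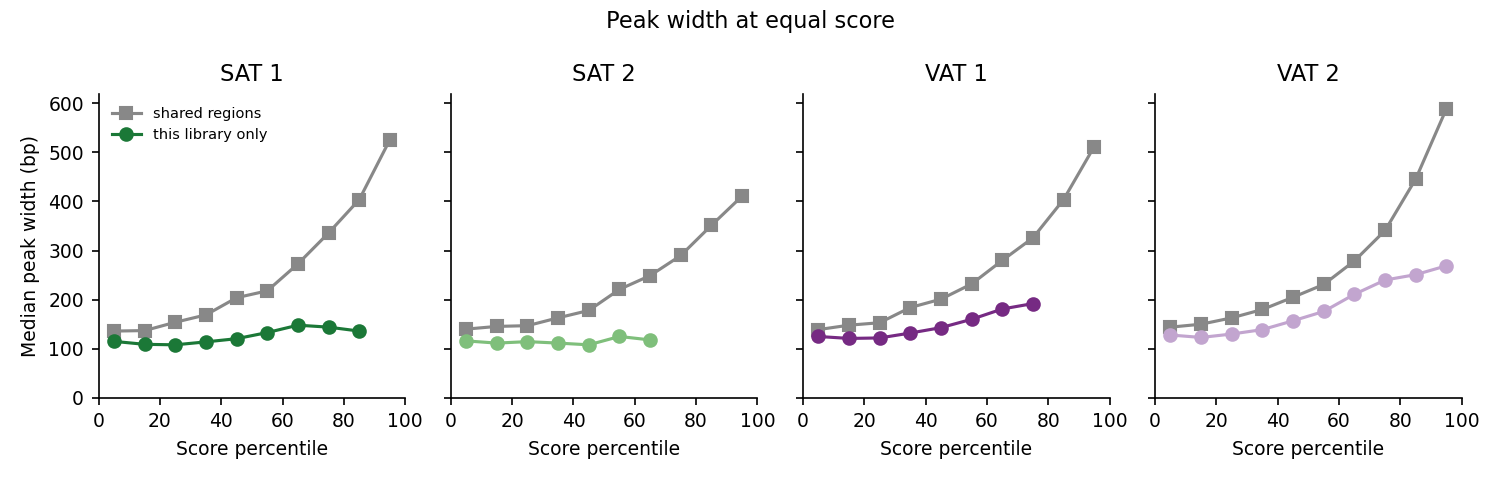
Median peak width in bp (vertical axis) by score percentile in bins of 10 (horizontal axis) for regions found in 1 library only (coloured circles) and shared regions (grey squares), 1 panel per library. Single-library peaks are narrower than shared peaks in every bin that holds both, and the gap is wider at high than at low scores, with 269 bp against 589 bp in the highest bin of VAT 2.

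At the edge of the rule lie members that almost touch a peak of another library. Of all members, 235 (0.799%) had such a peak within 10 bp. On the other side, 61 of the 15840 regions made of 1 peak from each of 2 libraries (0.385%) overlapped by 10 bp or less, with a minimum of 1 bp and a median of 115 bp. Few members therefore owe their class to a gap or an overlap of a few bases.

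Beyond the edge, the gap to the nearest peak of another library was largest in VAT 2. Its median was 7.44 kb there, against 2.98 kb in SAT 1, 2.82 kb in SAT 2 and 3.55 kb in VAT 1. Peaks of another library lay within 500 bp of 13.9% of VAT 2 members, 21.8% of VAT 1, 26.2% of SAT 1 and 29.9% of SAT 2 members. More than 10 kb away from any such peak were 6621 VAT 2 members (41.7%), 1865 of VAT 1 (26.7%), 1645 of SAT 1 (26.2%) and 75 of SAT 2 (27.4%). The other 3 lists hold fewer peaks in all when VAT 2, the longest, is the one set apart, and how much this adds to the difference was not tested. For SAT 1 members the library most often found within 500 bp was VAT 1 (21.4%), followed by VAT 2 (19%) and SAT 2 (7.08%), although the VAT 2 list is the longest. For VAT 1 members it was SAT 1 (17.6%), followed by VAT 2 (15.3%). SAT 2 members most often lay near VAT 2 peaks (25.2%), with 21.2% near VAT 1 and 20.1% near SAT 1 peaks.

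Members of different libraries can lie side by side but never overlap, since overlapping peaks are joined into a shared region. Pairs within 200 bp were counted, without the same count for other regions as a baseline. Within 200 bp of a VAT 1 member lay 180 SAT 1 members, or 2.87% of the SAT 1 class. Within the same distance of a VAT 2 member lay 159 SAT 1 members (2.54%) and 155 VAT 1 members (2.22%). SAT 2 had 12 members near one of VAT 2 and 2 near one of VAT 1, and 3 SAT 1 members lay near one of SAT 2.

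The position of members relative to regions open in all 4 libraries was not used by the rule, except that a member cannot overlap such a region. The median distance to the nearest of these 18734 common regions was 25.8 kb in SAT 1, 23.4 kb in SAT 2, 25.2 kb in VAT 1 and 28.2 kb in VAT 2. The means of the depots were 24.6 ± 1.70 kb for subcutaneous and 26.7 ± 2.12 kb for visceral libraries (SD, n = 2 each). Their difference was 2.08 kb (two-sided exact permutation test, p = 0.667). The smallest possible p is 0.333, so the test could not have set any difference apart. At the distances given above, VAT 1 by itself (25.2 kb) lay above the subcutaneous mean of 24.6 kb. With the lists joined anew without VAT 2, which redefines members and common regions, the difference was -1.12 kb. The difference was also negative when peaks within 500 bp were merged (-1.08 kb) and in the top 50% of each list by score (-8.76 kb), whereas with lists of equal length it was 4.33 kb (exact permutation p = 0.333). A common region needs a peak in SAT 2, the shortest list, and 18734 of the 20586 autosomal regions with a SAT 2 peak were common. The distances in kb therefore depend on that list. With the lists joined anew without SAT 2, the median distance was 10.0 kb in SAT 1 and the visceral mean was 12.3 kb.

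Within VAT 2, members lay farther from common regions than shared regions did. The median distance was 28.2 kb for members, 22.5 kb for regions shared with 1 other library and 20.8 kb for regions shared with 2 others. In SAT 1 the values were 25.8, 26.1 and 20.7 kb, and in VAT 1 they were 25.2, 25.4 and 20.7 kb. The SAT 2 values were 23.4, 25.3 and 16.4 kb, from 274, 665 and 913 regions. Restricting VAT 2 to score percentiles under 50 left 27.6 kb for members and 21.1 kb for regions shared with 1 other library. VAT 2 members were also the least often found within 1 kb of a common region, at 6.17%, against 8.17% in VAT 1, 10.9% in SAT 1 and 12.4% in SAT 2. Regions are not replicates, and these differences within 1 library were not tested.

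Along the chromosomes, VAT 2 members tended to follow each other without a region of another kind between them. Of its members, 43.2% (42.4% to 44.0%) had another VAT 2 member as a direct neighbour among the merged regions. All other regions had a VAT 2 member as neighbour in 32.8% of cases, a difference of 10.4 percentage points. In VAT 1 the shares were 17.7% (16.8% to 18.7%) for members and 16.3% for other regions. SAT 1 members had 15.6% (14.7% to 16.5%), against 14.9% of other regions, and SAT 2 members had 1.46% (0.399% to 3.70%), against 0.673%. Stronger VAT 2 members were in company more often, with 48.3% (46.2% to 50.4%) at or above the percentile of 50 and 42.4% (41.5% to 43.2%) under it.

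The depot means for direct neighbours of the same class were 8.53% ± 9.99 for subcutaneous and 30.5% ± 18.0 for visceral libraries (SD, n = 2 each). The difference of 21.9 percentage points had p = 0.333 by the same two-sided exact permutation test, its minimum for this design. The share rises with the size of the class, which follows from the rule. The counts of members thus enter this difference, and the excess over other regions was not compared between depots. With the lists joined anew without VAT 2, which redefines members, the difference was 12.6 points. With lists of equal length it was 3.49 points (exact permutation p = 0.667). Regions then found in a single library, most of which are not members, exceeded other regions by 5.73 points in VAT 2 and 5.33 in SAT 2. The excess was 4.61 points in VAT 1 and 1.88 in SAT 1, so that VAT 2 no longer stood apart.

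**Figure D4:**
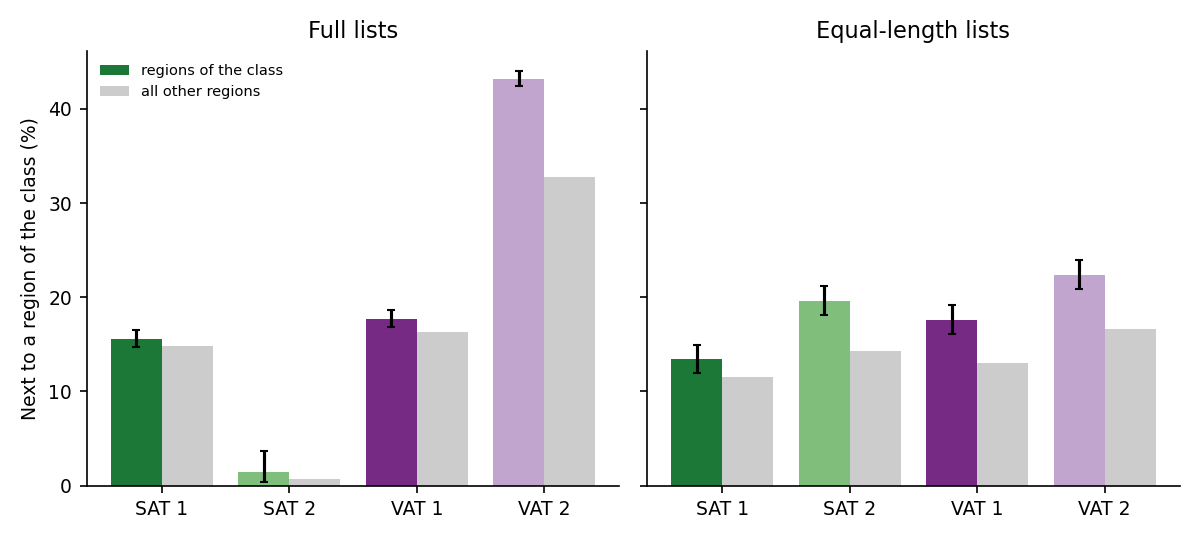
Percentage of regions with a direct neighbour that is a single-library region of the named library, for the regions of that class (coloured bars, with 95% Clopper-Pearson intervals for counting error) and for all other regions (grey bars), with full lists on the left and lists of equal length on the right. With full lists VAT 2 members reach 43.2% against 32.8% of other regions. With equal length, where most regions of the class are not members, regions found in VAT 2 alone reach 22.4% against 16.6%.

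Uninterrupted runs of members were longest in VAT 2. Runs of 3 or more held 17.1% of its members, against 3.05% in VAT 1, 2.49% in SAT 1 and 0 of 274 in SAT 2. For independent members 0 of 274 would allow a share of up to 1.09%, but members of a run are not independent. The longest run had 13 members in VAT 2, 5 in VAT 1, 4 in SAT 1 and 2 in SAT 2. Runs of 6 or more occurred 38 times in VAT 2, on 15 chromosomes, with 257 members in all and a median span of 112 kb. Members of these long runs were somewhat wider and stronger than members that stood alone, with medians of 159 bp against 138 bp and score percentiles of 32.7 against 25.3. With lists of equal length VAT 2 did not lead in runs. Runs of 3 or more then held 5.25% of the regions found in VAT 2 alone, 5.64% of those of SAT 2, 3.18% of those of VAT 1 and 1.74% of those of SAT 1. Runs of 6 or more numbered 0 in VAT 2, whose longest run had 5 regions, and 7 in SAT 2.

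The run of 13 lay on chromosome 3 at 34989613 to 35544436, a span of 555 kb in which no other library had a peak. Its strongest member, at 35240282 to 35240478, had a score of 209 and a percentile of 79.4. The next, at 35177697 to 35177885, had a score of 186. A group of 4 members lay within 35303627 to 35307849, with scores of 125, 100, 70 and 140, and its last member was 505 bp wide. The weakest of the 13, at 35218121 to 35218315, had a score of 35. On both sides the run was bounded by regions shared by SAT 1 and VAT 2, at 34784077 to 34784329 and at 35592028 to 35592303.

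The next longest run of VAT 2, with 9 members, lay on chromosome 2 at 37671334 to 37879118, with scores from 35 to 209. There were 7 runs of 8, among them chromosome 2 at 30938248 to 30988461, which packed its members into 50.2 kb, and chromosome 12 at 120169106 to 120386116, with a median score of 94.5 and a highest score of 219. Another run of 8 on chromosome 11, at 17180001 to 17564077, had scores from 35 to 119. The widest of the 38 long runs was a run of 6 on chromosome 12 at 90540515 to 91448518, which spanned 908 kb. The run of 6 with the highest single score lay on chromosome 8 at 96395278 to 96482604, whose members ranged from 61 to 383. In VAT 1 the longest run lay on chromosome 13 at 103089590 to 103278167, and its 5 members had scores of 46 to 79. SAT 1 had 3 runs of 4, the tightest of them within 8.63 kb on chromosome 7 at 6564383 to 6573011, with scores of 71 to 81 and a median width of 89 bp, the narrowest that its list holds.

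In windows of 1 Mb, members of each large class were most numerous where regions in general were dense. Across 2376 windows, the number of members rose with the number of merged regions, with Spearman's rho of 0.869 for VAT 2, 0.784 for VAT 1, 0.751 for SAT 1 and 0.180 for SAT 2. Members are part of the regions counted, so some of this relation is built in, and windows are not independent replicates. Given the number of regions in a window, the spread of members around a constant share had its highest value in VAT 2. The mean squared deviation from a constant share, divided by the expected number, was 1.38 for VAT 2, 1.09 for VAT 1, 1.06 for SAT 1 and 1.04 for SAT 2 over 1809 windows with at least 10 regions. It was 1.63 for the regions open in all 4 libraries. At equal relative unevenness this value grows with the mean number per window, so classes of unlike size cannot be ranked by it. The means were 8.47 in VAT 2, 3.69 in VAT 1, 3.28 in SAT 1 and 0.137 in SAT 2.

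The fullest window of VAT 2 lay on chromosome 2 from 30 to 31 Mb, where 32 of 112 regions were members and 40 were common to all libraries. It was followed by chromosome 2 from 167 to 168 Mb (28 of 130) and chromosome 7 from 117 to 118 Mb (27 of 94). For VAT 1 the fullest windows were chromosome 8 from 122 to 123 Mb (17 of 111), chromosome 13 from 103 to 104 Mb (14 of 58) and chromosome 9 from 121 to 122 Mb (14 of 106). The first of these also held 25 VAT 2 members. For SAT 1 they were neighbouring windows on chromosome 1 from 154 to 155 Mb (13 of 85) and from 155 to 156 Mb (12 of 88), and chromosome 3 from 79 to 80 Mb (11 of 61), the one with the highest share among 6 windows with 11 members. SAT 2 had at most 3 members in a window, on chromosome 4 from 145 to 146 Mb (3 of 24) and on chromosome 5 from 15 to 16 Mb (3 of 64), and of the 22 windows with 2 members, chromosome 8 from 19 to 20 Mb (2 of 30) had the highest share.

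Ranked by share instead, among windows with at least 20 regions, VAT 2 members formed the majority in several places. On chromosome 11 from 17 to 18 Mb they were 14 of 23 regions (60.9%), with 1 member of SAT 1, 0 of VAT 1 and 4 common regions. On chromosome 3 from 35 to 36 Mb, which holds most of the longest run, they were 12 of 20 (60.0%). Chromosome 15 from 5 to 6 Mb (12 of 22), chromosome 2 from 37 to 38 Mb (15 of 28) and chromosome 2 from 65 to 66 Mb (16 of 30) followed. This ranking was added after the values were seen. Over whole chromosomes the shares were more even, from 24.9% (23.5% to 26.3%) of VAT 2 regions on chromosome 11 to 28.5% (27.0% to 30.1%) on chromosome 8. VAT 1 ranged from 11.6% on chromosome 11 to 15.1% on chromosome 6, SAT 1 from 10.2% on chromosome 11 to 13.5% on chromosome 14, and SAT 2 from 0.773% on chromosome 9 to 1.90% on chromosome 1.

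**Figure D5:**
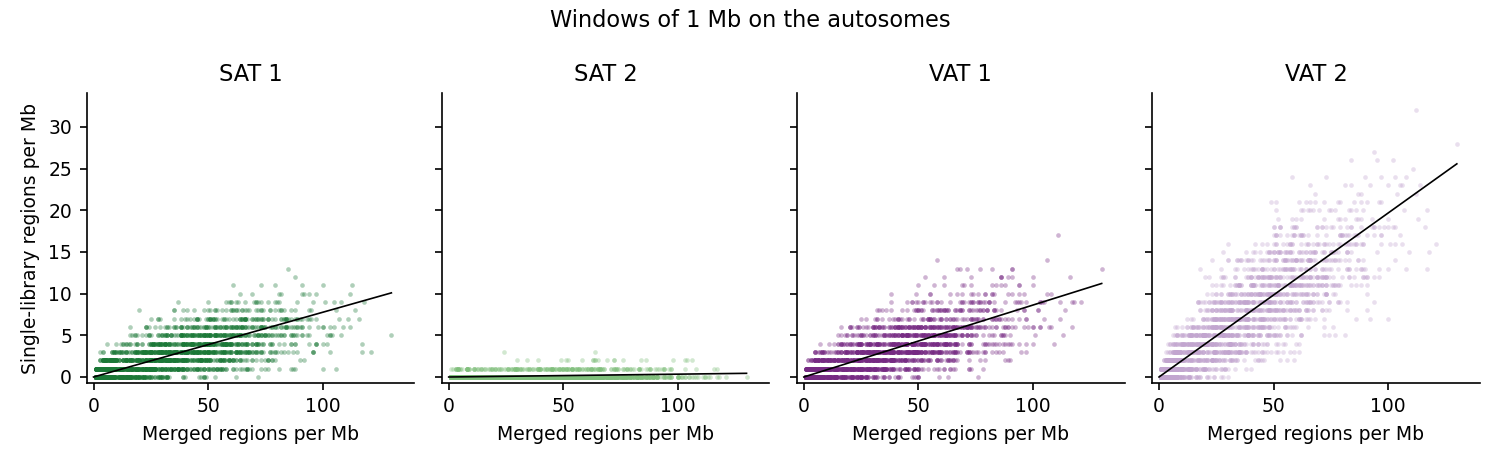
Number of single-library regions (vertical axis) against the number of all merged regions (horizontal axis) in autosomal windows of 1 Mb, 1 point per window and 1 panel per library; the black line is the library's mean share of all regions. VAT 2 points rise most steeply, up to 32 members in a window of 112 regions, and SAT 2 has at most 3 in any window.

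The 10 strongest members of VAT 2 stood between the percentiles of 85.9 and 98.1 of its list, above all members of the other libraries in theirs. They were drawn from 15893 members, against 6973 in VAT 1, 6272 in SAT 1 and 274 in SAT 2, and the highest values depend on class size. First came a region on chromosome 18, from 63180804 to 63180949, with a score of 499 and a percentile of 98.1. Another of the leading 10 lay close by, at 63178834 to 63179009, with a score of 264. The second strongest lay on chromosome 2 at 114127782 to 114128230 (score 387, 449 bp), and the third on chromosome 8 at 96395278 to 96395544 (score 383), in the run described above. Chromosome 1 at 154647171 to 154647441 had a score of 327. Chromosome 11 at 56576308 to 56576783 had a score of 308 and was remote, with 236 kb to the nearest peak of another library and 882 kb to the nearest common region. The remaining 4 lay on chromosome 13 at 19133241 to 19133552 (289), chromosome 12 at 90397854 to 90398171 (285), chromosome 16 at 44269783 to 44270034 (279) and chromosome 4 at 56671879 to 56672084 (272). All 10 were at least 14.2 kb away from any peak of another library.

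The 49 VAT 2 members at or above the percentile of 80 were few among the 12086 VAT 2 regions of that strength (0.405%). They lay on 17 chromosomes. Their median width was 252 bp, against 521 bp for shared peaks of that strength. Another VAT 2 member was a direct neighbour of 34 of the 49 (69.4%), against 43.2% of all VAT 2 members. Their median distance to a common region was 38.1 kb.

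SAT 1 had its strongest member on chromosome 5 from 123099441 to 123099593, with a score of 218 and a percentile of 83. Chromosome 4 at 20593544 to 20593679 and chromosome 11 at 109704131 to 109704240 followed, both with a score of 207. The leading 10 were 103 to 262 bp wide, with a median of 143 bp. The seventh, on chromosome 15 at 15716144 to 15716283 (score 173), lay 0.414 kb from a peak of another library but 2765 kb from the nearest common region. The eighth, on chromosome 1 at 6032618 to 6032720 (score 173), was 172 kb from any peak of another library. The other 5 lay on chromosome 1 at 192706811 to 192706956 (score 184), chromosome 5 at 28724020 to 28724155 (184), chromosome 12 at 100623427 to 100623581 (178), chromosome 3 at 103465801 to 103466062 (162) and chromosome 19 at 38873384 to 38873587 (162).

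VAT 1 had its strongest member on chromosome 19 from 55902179 to 55902413, with a score of 218 and a percentile of 79.2. Chromosome 8 at 42123552 to 42123713 had a score of 208. It was followed by 4 members with a score of 206, among them chromosome 4 at 109262580 to 109262783, which was 66.9 kb from any peak of another library. Of the other 3 with this score, chromosome 3 held one at 96483088 to 96483282, and chromosome 5 held a pair, at 134439721 to 134439912 and 66591354 to 66591509. Chromosome 1 at 163941806 to 163941997 and chromosome 11 at 53832536 to 53832678 had scores of 195, and chromosome 14 at 70931217 to 70931432 and chromosome 18 at 61095000 to 61095158 had scores of 192. The leading 10 reached down to a score of 192, and their median width was 192 bp.

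SAT 2 members were weak even at the top. The first, on chromosome 1 from 155149344 to 155149463, had a score of 116 and a percentile of 65.4, with a peak of another library 0.750 kb away. Chromosome 5 at 6032619 to 6032736 and chromosome 7 at 134860620 to 134860733 had scores of 107. The fourth, on chromosome 4 at 3103065 to 3103183 (score 105), lay 0.815 kb from a common region. The sixth, on chromosome 14 at 3651482 to 3651691 (score 97), was the most isolated, with 630 kb to the nearest peak of another library. The other 5 lay on chromosome 6 at 29698845 to 29698948 (score 105), chromosome 10 at 37034607 to 37034730 (96), chromosome 12 at 106762931 to 106763053 (96), chromosome 1 at 87361284 to 87361470 (91) and chromosome 11 at 85126468 to 85126593 (91). The median gap of the leading 10 to a peak of another library was 2.65 kb in SAT 2, 5.91 kb in VAT 1, 7.23 kb in SAT 1 and 27.3 kb in VAT 2. The leading 10 are a far larger part of the SAT 2 class than of the others, so these medians do not compare like with like.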

How the data were processed

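ATAC-seq was deposited as 1 peak list per library, without pooling of replicates. Per the submitters' processing notes, Bowtie2 and MACS2 were used, with build mm9. Their versions and options, and any filter of duplicates or repeats, are not stated there. The deposited score in column 5 is a whole number of 20 or more. Its scaling is not given, so members were ranked by it only within a list, as a percentile with ties at their mean rank. Scores printed for regions, runs and list ends are the deposited values, and whether they compare between lists is not known. The other deposited values used are the start and end positions of peaks.

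Peaks sharing at least 1 bp were joined over the 4 lists, and autosomal regions with a peak in exactly 1 library were kept. Lists of equal length held the 22845 highest-scoring peaks of each library, with ties at the last score taken in genome order. Distances run from edge to edge. Intervals of shares are 95% Clopper-Pearson intervals and reflect counting error alone. Libraries were compared by a two-sided exact permutation test. The code was tested on simulated lists, and bedtools 2.31.1 gave the same 83319 merged regions. Python 3.11.15, numpy 2.4.6, pandas 2.3.3, scipy 1.17.1 and matplotlib 3.10.9 were used.

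For each library the text names the 10 members with the highest score percentile and the 3 windows of 1 Mb with the most members, ties going to the higher share of the window's regions. The members and lists were chosen with earlier results of these data known. Planned gene lists, gene distances and GC content need an mm9 annotation or genome and were not analysed here.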

Additional observations from a re-analysis of the deposited data

Results flagged for a closer look

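Chromosomes X and Y lie outside the members, but their lists also held regions found in a single library, 882 on X and 25 on Y. On X these made up 26.2% of the regions of VAT 2 (440), 15.9% of SAT 1 (251), 11.5% of VAT 1 (167) and 3.68% of SAT 2 (24). The intervals on X were 14.1% to 17.8% in SAT 1 and 2.37% to 5.43% in SAT 2, beside autosomal shares of 11.8% and 1.33%. In VAT 1 and VAT 2 they were 9.91% to 13.3% and 24.1% to 28.3%, beside 13.0% and 26.8%. All intervals given for X reflect counting error alone. Regions are not replicates, and X was not tested against the autosomes. The stretch of X between 120 and 123 Mb held 34.3% of the single-library regions of SAT 1 on X (86 of 251), against 22.4% of all its regions on X. The stretch was chosen after the values were seen. In SAT 2 it held 18 of 24, against 34.5% of all regions, in VAT 1 29.3% against 21.1%, and in VAT 2 11.4% against 16.9%. Outside that stretch the shares on X were 13.5% in SAT 1 (11.6% to 15.5%), 1.41% in SAT 2 (0.517% to 3.03%), 10.3% in VAT 1 (8.60% to 12.2%) and 27.9% in VAT 2 (25.6% to 30.3%). On Y the counts were 11 in SAT 1, 2 in SAT 2, 5 in VAT 1 and 7 in VAT 2.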

How the results depend on the processing

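VAT 2 had the largest class under every alternative run in which it took part. With the top 50% of each list the classes held 2804 (SAT 1), 97 (SAT 2), 3084 (VAT 1) and 7294 (VAT 2) regions. With equal-length lists they held 2006, 2590, 2327 and 3012. With 50% reciprocal overlap SAT 1 had 12221, SAT 2 had 5857 and VAT 1 had 12299, counted as peaks, and VAT 2 had 21924. With 200 bp around each centre SAT 2 rose to 907. With each library left out in turn, the counts were 6344 to 14249 for SAT 1, 353 to 862 for SAT 2, 7044 to 14872 for VAT 1 and 16432 to 20068 for VAT 2, since a region shared only with the library left out then becomes a member. SAT 1 was highest without VAT 1 (and 10748 without VAT 2), VAT 1 was highest without SAT 1 (and 11114 without VAT 2), and SAT 2 was highest without VAT 2. The depot difference in median distance (2.08 kb) turned to -1.08 kb when peaks within 500 bp were merged and to -8.76 kb in the top 50%, and the cause was not tested. With equal-length lists it was 4.33 kb (exact permutation p = 0.333). It lay between -1.12 and 4.41 kb with 1 library left out. The difference in direct neighbours lay between 12.6 and 46.6 percentage points with 1 library left out. With a replicate block the differences stayed at 2.08 kb and 21.9 points, with exact sign-flip p of 1.0 and 0.5. The replicate pairs gave -0.62 and 4.79 kb for distance and 2.15 and 41.7 points for neighbours. The labels do not say that a shared number marks a shared animal or batch. The planned comparisons of distance to gene starts and of GC content were not run. The lists hold no counts, so depth limits every count to an unknown degree.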

Other observations

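A few windows held single-library regions of several libraries and almost no common region. On chromosome 4 from 146 to 147 Mb, 19 of 23 regions (82.6%) had a peak in 1 library only, 11 of them in VAT 2, 5 in VAT 1, 2 in SAT 1 and 1 in SAT 2, and 0 regions were common to all. The adjoining window from 145 to 146 Mb had 18 of 24 (75%), with 5 of SAT 1, 3 of SAT 2, 6 of VAT 1 and 4 of VAT 2, and again 0 common regions. On chromosome 1 from 85 to 86 Mb there were 16 of 20, of which 8 belonged to SAT 1 and 6 to VAT 1, and 1 region was common. The windows led by VAT 2 differ in makeup, since chromosome 3 from 35 to 36 Mb and chromosome 11 from 17 to 18 Mb held 4 common regions each and at most 1 member of any other library. These windows were chosen after their values were seen.

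With lists of equal length, the longest run of regions found in a single library belonged to SAT 2. It lay on chromosome 9 at 3002593 to 3035913, where 18 consecutive regions ranked among the highest 22845 peaks in SAT 2 only. All 18 overlapped a peak that another library had in its full list, so none of them is a member. Their median percentile in SAT 2 was 29.4.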
